A study of Mus musculus with 18 samples.

Results

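Peaks of KAP1 binding that were called over knockout chromatin but overlapped no called H3K9me3 region were the subject: 1219 of the 3099 KAP1 peaks (39.3%) called in wild-type mouse embryonic stem cells. KAP1, encoded by Trim28, is a corepressor. A peak was taken as a member when it overlapped, by at least 1 bp, a peak called in wild-type KAP1 chromatin against knockout KAP1 chromatin, and when it overlapped none of the 37002 wild-type H3K9me3 regions. The members were thus chosen by measured values, the peak calls and the H3K9me3 calls, so the scores, the sensitivity to the knockout and the lack of wild-type H3K9me3 describe how the peaks were chosen and are not findings. The remaining peaks were 583 knockout-sensitive peaks with H3K9me3 (18.8%), 935 peaks called only against input and lacking H3K9me3 (30.2%), and 362 called only against input with H3K9me3. Throughout, lacking H3K9me3 means that no called region overlapped the peak. Signal too weak to be called was not examined, so the mark itself may be present.

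The cells were ES3, an embryonic stem cell line of strain C57BL/6 grown in serum with LIF on gelatin. Knockout ES3 cells were taken 4 days after 4-hydroxytamoxifen switched on a Cre recombinase that deletes Trim28, and wild-type ES3 cells were cultured for 4 days. RNA was also measured in C57BL/6 mouse embryonic fibroblasts (MEFs), as knockout cells 5 days after Cre induction and wild-type cells cultured for 5 days. KAP1 chromatin was precipitated with a rabbit polyclonal antibody and H3K9me3 chromatin with Abcam ab8898. Per the labels, H3K9me3 was reduced but still present in the knockout cells at day 4. Each condition was 1 library, RNA came from pooled duplicates, and read depth is unknown. No spread between replicates and no test between conditions could therefore be had. Values are given as they stand, and Wilson 95% intervals around shares cover counting error only.

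KAP1 does not read DNA itself. KRAB zinc finger proteins, a large family of DNA-binding repressors, bring it to their sites, and KAP1 there gathers SETDB1, the enzyme that writes H3K9me3, with HP1 and histone deacetylases. In embryonic stem cells this machinery is best known for silencing endogenous retroviruses and for guarding imprinting control regions, stretches of DNA methylated on only the maternal or the paternal chromosome. ZFP57, a KRAB zinc finger protein, binds methylated TGCCGC at those regions. The same parental allele that holds DNA methylation is the one on which KAP1 and H3K9me3 are known to sit.

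The promoter windows of 6 genes are shown because their starts lay within 1 kb of the highest-scoring member peaks for which a window was at hand. They run 5′ to 3′ from 250 bases before to 50 bases after the start and are RefSeq sequence of GRCm38.p6, tied to the peaks, which are mm9, by gene symbol only. Capitals mark the ZFP57 letters TGCCGC or their reverse complement GCGGCA. Nap1l5 lies at chr6:58907077-58907376, minus strand; Airn at chr17:12741061-12741360, plus strand; Sbsn at chr7:30751221-30751520, plus strand. Snrpn lies at chr7:60005150-60005449, minus strand; Csnk2a1 at chr2:152226590-152226889, plus strand; Fhl2 at chr1:43163912-43164211, minus strand.
Nap1l5: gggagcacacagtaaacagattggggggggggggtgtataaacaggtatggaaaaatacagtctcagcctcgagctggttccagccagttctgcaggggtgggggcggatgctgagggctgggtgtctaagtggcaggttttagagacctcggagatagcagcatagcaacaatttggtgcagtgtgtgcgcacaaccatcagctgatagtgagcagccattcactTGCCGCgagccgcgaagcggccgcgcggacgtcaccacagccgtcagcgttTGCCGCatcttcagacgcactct
Airn: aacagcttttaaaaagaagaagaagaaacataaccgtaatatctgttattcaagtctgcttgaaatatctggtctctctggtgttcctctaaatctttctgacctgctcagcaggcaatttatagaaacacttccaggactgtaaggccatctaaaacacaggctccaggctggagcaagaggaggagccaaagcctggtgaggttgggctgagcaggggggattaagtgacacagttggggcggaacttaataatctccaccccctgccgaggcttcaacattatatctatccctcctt
Sbsn: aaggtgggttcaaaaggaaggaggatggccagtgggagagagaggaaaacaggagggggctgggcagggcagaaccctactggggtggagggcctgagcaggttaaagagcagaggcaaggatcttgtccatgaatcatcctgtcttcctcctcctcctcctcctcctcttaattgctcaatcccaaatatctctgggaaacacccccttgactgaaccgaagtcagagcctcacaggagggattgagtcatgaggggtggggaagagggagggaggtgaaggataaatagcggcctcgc
Snrpn: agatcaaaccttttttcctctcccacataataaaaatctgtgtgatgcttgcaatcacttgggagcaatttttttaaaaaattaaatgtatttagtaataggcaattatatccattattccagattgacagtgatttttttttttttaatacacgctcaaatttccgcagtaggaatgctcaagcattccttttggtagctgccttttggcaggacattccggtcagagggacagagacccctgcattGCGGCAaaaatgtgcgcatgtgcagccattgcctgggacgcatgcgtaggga
Csnk2a1: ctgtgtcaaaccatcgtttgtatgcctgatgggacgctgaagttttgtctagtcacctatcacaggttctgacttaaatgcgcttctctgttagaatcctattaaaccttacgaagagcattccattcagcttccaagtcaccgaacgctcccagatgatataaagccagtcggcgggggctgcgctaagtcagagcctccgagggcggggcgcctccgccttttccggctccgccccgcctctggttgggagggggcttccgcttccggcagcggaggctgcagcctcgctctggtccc
Fhl2: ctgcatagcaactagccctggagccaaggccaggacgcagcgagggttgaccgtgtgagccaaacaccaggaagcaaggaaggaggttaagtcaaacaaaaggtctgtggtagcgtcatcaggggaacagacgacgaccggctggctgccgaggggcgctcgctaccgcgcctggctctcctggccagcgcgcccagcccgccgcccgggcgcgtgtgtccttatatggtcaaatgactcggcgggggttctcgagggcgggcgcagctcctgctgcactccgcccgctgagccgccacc

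The Nap1l5 window held the ZFP57 letters at 2 places and the Snrpn window at 1, while the Airn, Sbsn, Csnk2a1 and Fhl2 windows held none. Windows were found for 17 of the 32 genes with a start within 1 kb of a member peak. The letters stood in 3 of the 17 windows (17.6%), against 11.6% of all 32851 promoter windows in the RefSeq table. CpG pairs numbered 3 to 36 in the 17 windows, with a median of 15, against a median of 7 in all windows. GGGCGG, the GC box of SP and KLF factors, stood in 9 of the 17 (52.9%) against 35.7% of all windows. The TATA box letters TATAAA stood in 5 (29.4%) against 13.6%, and CCAAT, the NFY box, in 3 (17.6%) against 37.4%. Each was searched on both strands, and with 17 windows these shares are descriptions only. CCGGAAG, an ETS site, stood in 2 (11.8%) against 8.86% of all windows. AAGATGG of YY1, the E-box CACGTG and the cAMP response element TGACGTCA stood in 1 each, and GCGCATGC of NRF1 in none. The 17 are 1 window per gene, while the set of all windows was not reduced in this way or matched for RNA level. Measured genes with a start within 1 kb had a median wild-type ES3 level of 20.6 RPKM, against 7.57 RPKM over all measured genes. The part this has in the differences was not tested.

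The highest-scoring member peaks, named in this paragraph, lay in or near genes of imprinted domains. The next in rank lay at other genes, given below. Scores come from the calls that chose the members, so this order is a description. The highest score over input, 392.37, belonged to a peak inside Gpr1, whose imprinted domain it shares with Zdbf2 (mm9 chr1:63246432-63247210). It was followed by a peak inside Inpp5f, an inositol phosphatase gene with an imprinted variant, at 342.35 (chr7:135831067-135832056). The third lay over the start of Nap1l5, a paternally expressed retrogene within an intron of Herc3, at 323.9 (chr6:58856531-58857378). The fourth, at 295.21, lay 29627 bp upstream of the start of Rasgrf1, a paternally expressed exchange factor for Ras (chr9:89774036-89774985).

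Further member peaks stood at Airn, the antisense RNA that silences Igf2r on the paternal chromosome (score 182.93), and at Sgce, a paternally expressed sarcoglycan gene beside Peg10 (175.84). Nespas, the antisense RNA of the Gnas cluster (159.87), and Snrpn, which marks the Prader-Willi imprinting centre (100.5), had members at 238 bp and 92 bp from their starts. Ordered by score, the 4 highest-scoring members with a gene start within 1 kb were those at Nap1l5, Airn, Sgce and Nespas, followed by Sbsn at 123.05 and Snrpn. The scores of these peaks in the call against knockout chromatin ran from 342.35 at Inpp5f to 77.24 at Airn.

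**Figure D1:**
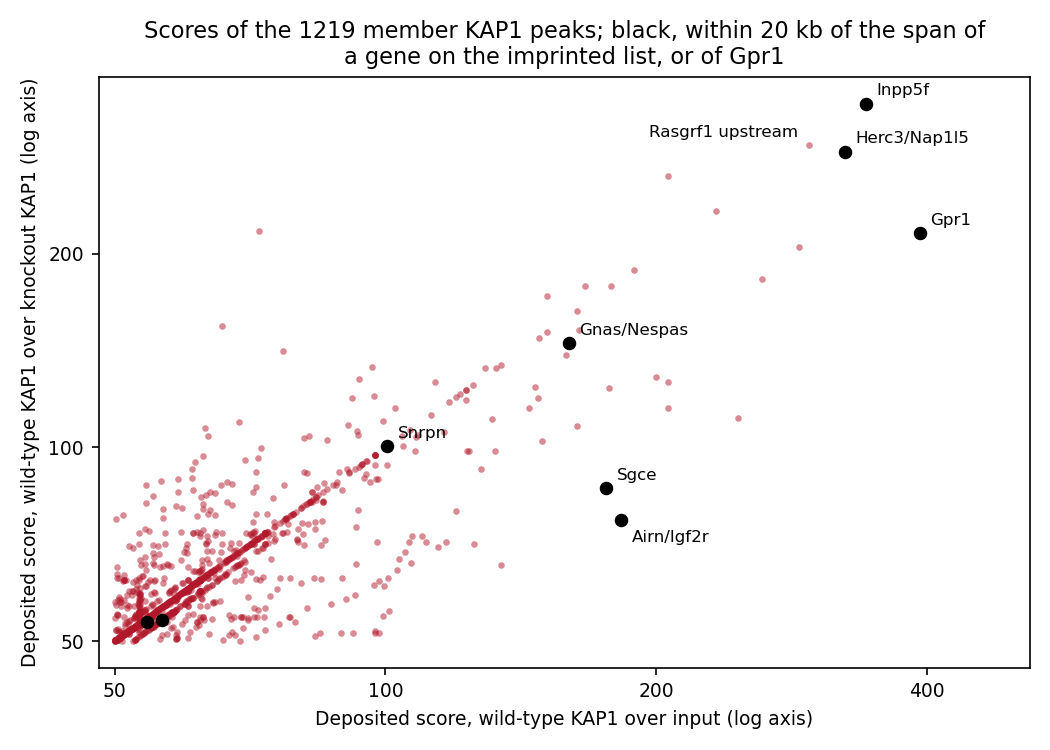
The deposited score of each of the 1219 member peaks in the call over input (horizontal, log axis) against its score in the call over knockout chromatin (vertical, log axis); score scales are not stated. Black points mark peaks within 20 kb of the span of an imprinted-list gene or of Gpr1. Gpr1 is not on that list and holds the highest-scoring peak, at 392.37. The highest at a list gene is 342.35, at Inpp5f. Most black points sit at the upper end, with 2 near the lower edge.

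Of 44 imprinted genes with RNA values, 8 (18.2%) had a start within 20 kb of a member peak and 11 (25.0%) when genes holding a member's centre were added. Over all 17818 symbols the same shares were 2.74% and 4.65%. Peaks called only against input and lacking H3K9me3 reached 2 of the 44 (4.55%), and knockout-sensitive peaks with H3K9me3 reached 8 (18.2%). The marked peaks included those at Nnat and Blcap (851.8), upstream of Meg3 (577.46), inside Kcnq1 (343.48) and at Peg3 and Usp29 (182.83). Imprinted loci thus fell on both sides of the H3K9me3 condition. Neighbouring imprinted genes can share a peak, as Nespas and Gnas, Airn and Igf2r, and Nap1l5 and Herc3 do among members. Nnat and Blcap do so among the marked peaks. These shares therefore count genes and not independent places. The members of the list were picked with results of these data known, and no test was made.

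Some imprinted members lay just outside a wild-type H3K9me3 region. The Nespas peak was 224 bp from one, the Airn peak 702 bp, and a peak of score 54.3 in Mest, a paternally expressed hydrolase gene, 45 bp. Adjacent peaks at these loci fell in other classes: 2 peaks beside the Nespas member, with scores of 74.6 and 52.75, overlapped wild-type H3K9me3, as did the neighbour of the Mest member (65.47). Others were far from any such region: 166721 bp at Nap1l5, 143903 bp at Gpr1, 99482 bp at Snrpn, 76418 bp at Inpp5f and 68608 bp upstream of Rasgrf1. The Sgce peak lay 7875 bp away.

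RNA of the imprinted genes at member peaks is given in knockout and wild-type ES3 cells as RPKM, reads scaled to transcript length and library size. Gnas, the stimulatory G protein alpha subunit, stood at 41.7 RPKM in knockout and 16.0 RPKM in wild-type cells, a log2 ratio of 1.33 computed on RPKM plus a pseudocount of 1. Inpp5f stood at 7.09 in knockout and 2.24 RPKM in wild-type cells (1.32). These 2 were the only ones of 9 measured (1 RPKM or more in either library) that passed 2-fold; none was lower by 2-fold. Over all measured genes 12.5% were higher and 3.18% lower by that threshold, and over the whole imprinted list 9 of 37 were higher and 3 lower. With a pseudocount of 5 RPKM Inpp5f fell under 2-fold (0.74). Igf2r, a receptor that clears IGF2, had 44.5 RPKM in the knockout and 27.7 in the wild type (0.66), and Mest had 46.2 and 33.5 (0.45).

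Snrpn had 19.2 RPKM in knockout and 22.8 RPKM in wild-type cells (log2 ratio -0.24), and Nespas 1.61 and 2.46 (-0.41). Airn was at 1.16 RPKM in the knockout against 0.362 RPKM in the wild type, Sgce at 1.34 against 0.748, and Herc3 at 2.85 against 1.84. Nap1l5 was under the 1 RPKM minimum in both, at 0.285 in the knockout and 0.646 in the wild type. Dlk1, a Notch-pathway ligand whose own start lay 5810 bp from a member of score 56.45, was also under it, at 0.477 and 0.151 RPKM. RPKM sums both parental alleles, so allele-specific expression was not measured. Airn and Igf2r overlap on opposite strands, as do Nespas and Gnas, and where the counting did not use strand their reads cannot be told apart.

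The remaining 8 of the 12 highest-scoring members lay at other genes. They were nearest to Rfx3, a ciliary transcription factor gene (287.99); Aplp2, an amyloid precursor-like protein (262.24); Tbc1d22a, a Rab regulator (246.39); and Fdft1, squalene synthase (232.9). Pknox2, a homeobox gene, followed at 206.28, then Psma1, a proteasome subunit, and Chm, a Rab escort protein on the X chromosome, both at 205.97. The last was nearest to Plk2, a polo-like kinase, at 199.85. In ES3 cells Plk2 was the only one of these genes past 2-fold, while Rfx3 was under 1 RPKM in both libraries. In MEFs Chm had 0.517 RPKM in knockout and 2.49 RPKM in wild-type cells (-1.2). Plk2 stood at 65.6 RPKM in knockout and 19.7 RPKM in wild-type ES3 cells (log2 ratio 1.69), and its start was 19609 bp from the peak. Aplp2 had 35.4 RPKM in the knockout and 32.4 in the wild type (0.13), Psma1 102.0 and 119.0 (-0.21), and Fdft1 24.5 and 15.0 (0.67). At the 4 highest peaks, Gpr1 was at 0.613 RPKM in the knockout and 0.0935 in the wild type, its neighbour Zdbf2 at 5.66 and 9.51 (-0.66), and Rasgrf1 at 0.0308 RPKM in the knockout and listed at 0 in the wild type.

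As a whole the member peaks were narrow and mostly weak. Scores ran from 50.05 to 392.37 with a median of 59.51, and widths from 252 to 1377 bp with a median of 545 bp. Their median score lay between that of knockout-sensitive peaks with H3K9me3 (79.87) and that of input-only peaks lacking H3K9me3 (55.46). Scores over 100 were held by 72 members (5.91%), against 35.2% of the knockout-sensitive peaks with H3K9me3 and 1.71% of input-only peaks lacking it. The score describes peaks within 1 list only. At the edges of the rule, the smallest overlap of a member with a peak called over knockout chromatin was 252 bp, and the nearest unmatched peak lay 136 bp away. Members closest to a wild-type H3K9me3 region were 5, 17 and 17 bp from one, and the marked peaks with the smallest overlap shared 9, 11 and 13 bp.

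Member peaks were scattered along the genome. Among 1199 pairs of neighbours on a chromosome, the median gap was 1.16 Mb, and 12 pairs lay within 10 kb. Chromosome 1 held 136 of them (11.2%) on 7.46% of the chromosome length the lists span, and the X chromosome held 11 (0.902%) on 6.31%. That is 0.066 members per Mb on X, against 0.345 to 0.69 on the autosomes. On X lay 1 of the 583 knockout-sensitive peaks with H3K9me3 (0.172%), 10 of the 935 input-only peaks lacking it (1.07%) and 10 of the 362 input-only peaks with it (2.76%). Of the 1898 peaks called in knockout KAP1 chromatin over input, 21 (1.11%) lay on X. Input-only peaks lacking H3K9me3 had 11.4% on chromosome 1. Chromosome 14 held 75 members (6.15%).

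**Figure D2:**
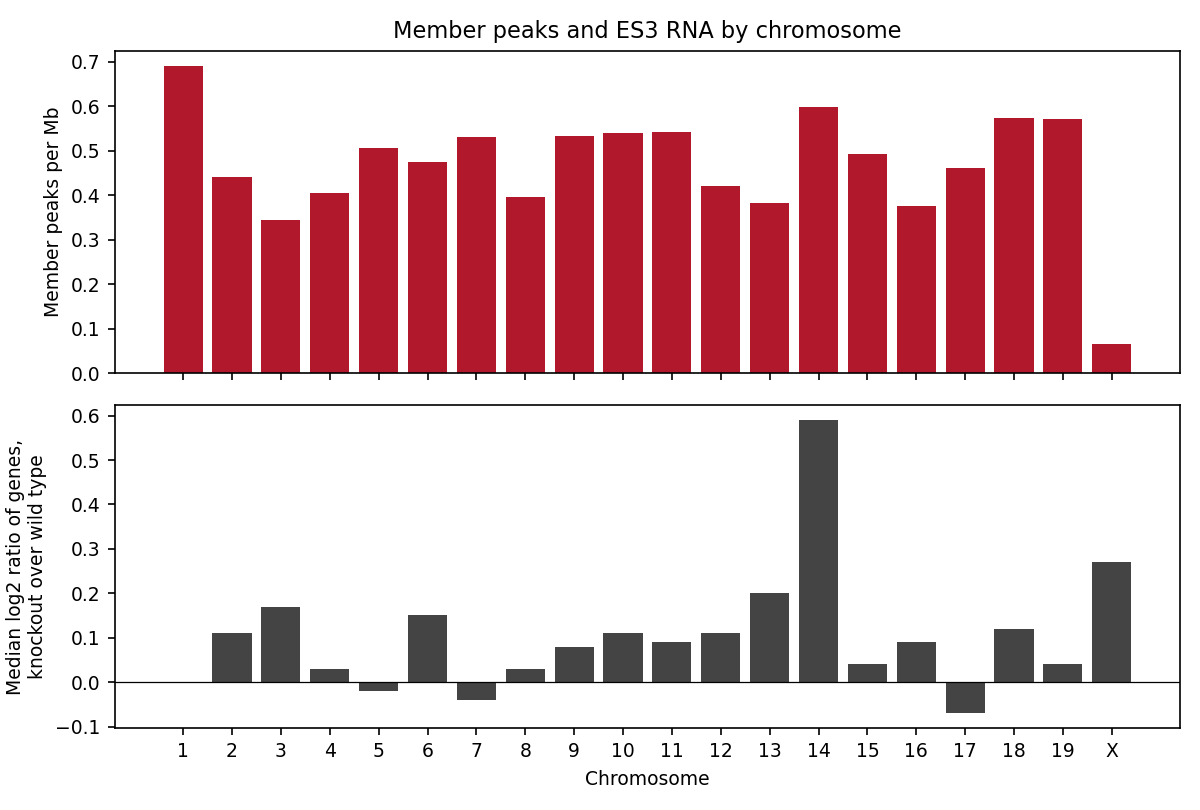
Member peaks per Mb of chromosome (upper bars) and the median log2 ratio, knockout over wild type, of measured ES3 genes (lower bars) for chromosomes 1 to 19 and X. Chromosome X has 0.066 members per Mb; the median ratio of chromosome 14 is 0.59.

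Few member peaks lay at promoters, and few KAP1 peaks of any class did. Over all 3099 peaks, a gene start was within 1 kb of 2.61% and within 20 kb of 31.5%. For knockout-sensitive peaks with H3K9me3 these shares were 1.37% and 29.7%. A gene start was within 1 kb of 30 members (2.46%, interval 1.73 to 3.49), against 32 (3.42%, 2.43 to 4.79) of the input-only peaks lacking H3K9me3. It was within 20 kb for 374 members (30.7%, 28.2 to 33.3), against 35.3% (32.3 to 38.4) of that class. Centres of 547 members (44.9%, 42.1 to 47.7) fell inside a gene span, against 42.4% (39.2 to 45.5) in that class and 29.0% (25.5 to 32.8) among knockout-sensitive peaks with H3K9me3. Within host genes the centres were spread evenly, with 175, 187 and 185 in the first, middle and last parts of equal length. Of the 632 members scoring 50 to 60, 42.2% lay inside a gene, against 64.0% of the 25 scoring 150 or more, whose wide interval overlaps that of the first.

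**Figure D3:**
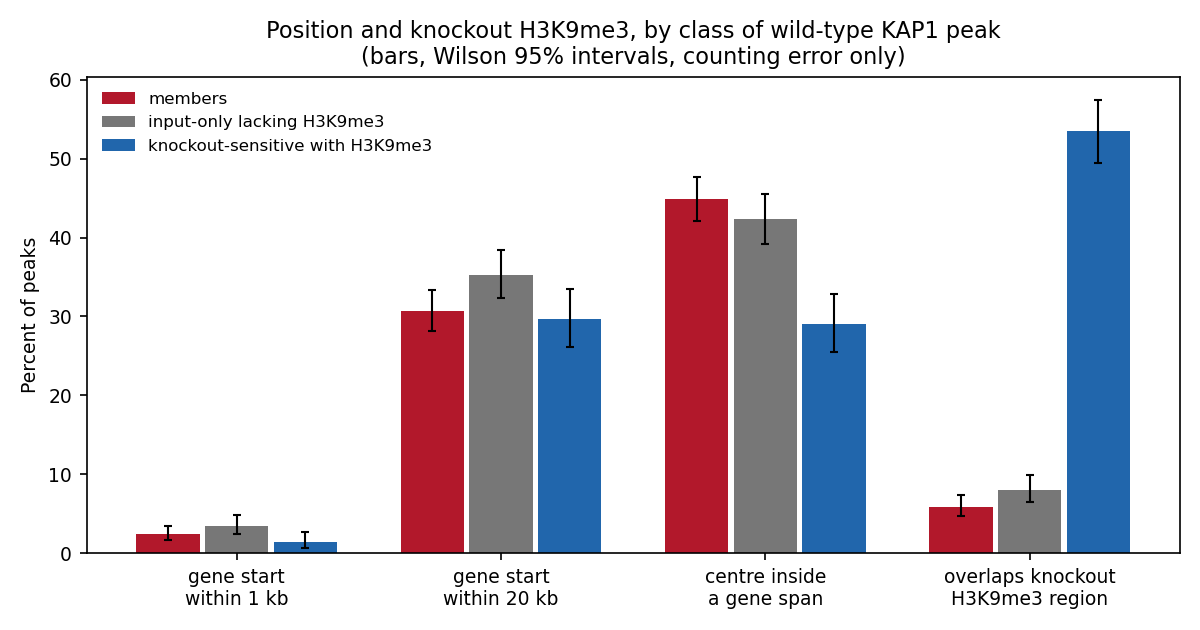
Percent of peaks by position and by overlap with a knockout H3K9me3 region, for members (left), input-only peaks lacking H3K9me3 (middle) and knockout-sensitive peaks with H3K9me3 (right). Error bars are Wilson 95% intervals for counting error; 44.9% of members have their centre inside a gene.

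In the knockout, no member overlapped a KAP1 peak called in knockout chromatin over its input (0 of 1219), against 29 (3.1%) of the input-only peaks lacking H3K9me3. The knockout KAP1 library entered the rule, so this is a description. H3K9me3 regions of the knockout, whose library the rule did not use, overlapped 72 members (5.91%, 4.72 to 7.37), against 75 (8.02%, 6.45 to 9.94) of the input-only peaks lacking H3K9me3; these intervals overlap. Since every one of these peaks lacked wild-type H3K9me3 by choice, each such overlap is at a place where only the knockout list has a region. The share was 3.16% of members scoring 50 to 60, 6.22% at 60 to 80, 16.5% at 80 to 100, 14.9% at 100 to 150 and 12.0% at 150 or more. In the input-only peaks lacking H3K9me3 it was 6.55%, 9.16% and 18.5% in the first 3 of these bands, then 28.6% (4 of 14) and 1 of 2. Without chromosome 14 the members with such an overlap, by rising score, were 17 of 592, 23 of 397, 12 of 89 (13.5%), 5 of 43 and 3 of 23.

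**Figure D4:**
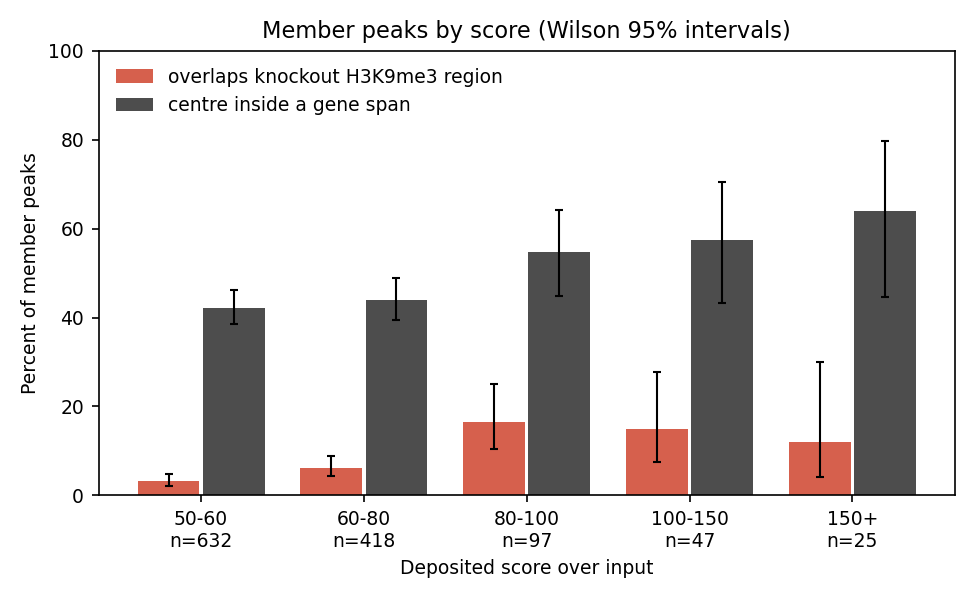
Percent of member peaks that overlap a knockout H3K9me3 region (red) or have their centre inside a gene span (grey), by deposited score over input, with Wilson 95% intervals. The first is 16.5% at scores of 80 to 100, and the second 64.0% at 150 or more.

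The highest-scoring members with a knockout H3K9me3 region lay upstream of Tbc1d14, a regulator of autophagy (163.42), and at Nespas (159.87). Next came a peak 652187 bp from the start of Ipo11, a nuclear import receptor (151.36), and Sbsn, a secreted protein of epidermis (123.05). The others of the first 8 lay in Gcap14 (106.84), in Diap3, an actin-nucleating formin (106.58), near Lnp, an endoplasmic reticulum protein (106.31), and in Ahi1, a ciliary protein (104.69). Sbsn was the 1 with both a start within 1 kb and a 2-fold RNA difference. The member 1755 bp from the start of Nanog, a core pluripotency factor, also overlapped one, by 465 bp (score 88.17).

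Members on chromosome 14 beyond 100 Mb, a boundary that was not planned, stood apart in this readout. Of these 34 members, 9 (26.5%) overlapped a knockout H3K9me3 region. The share was not computed for the 32 input-only peaks lacking H3K9me3 in that stretch, so it cannot be called particular to members. Among members it was 3 of 41 (7.32%) on the rest of chromosome 14 and 60 of 1144 (5.24%) on the other chromosomes. The stretch beyond 100 Mb held 1262 knockout H3K9me3 regions against 280 wild-type ones, while the chromosomes other than 14 held 34025 and 35430. Genes in that stretch were also higher in knockout RNA, with 27 of 43 measured ES3 genes past 2-fold, none lower, and a median log2 ratio of 1.2. The rest of chromosome 14 was shifted too, with 87 of 366 genes higher, a median of 0.54, and 1934 knockout against 1292 wild-type H3K9me3 regions. The median was 0.07 on the other chromosomes, and in MEFs it was -0.25 for the stretch and -0.06 for the rest of chromosome 14. Of the peaks called over knockout KAP1 chromatin, 175 (7.35%) lay in the stretch beyond 100 Mb, and 45 of these overlapped a peak called over input. Such an overlap was found for 65 of 86 on the rest of chromosome 14 and 1692 of 2121 on the other chromosomes. A difference in DNA copy number between the cultures would change what all 3 readouts mean there; copy number was not tested, nor was the part this shift has in the results for chromosome 14 members.

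RNA of most genes at member peaks was within 2-fold between knockout and wild type. Of the 32 genes with a start within 1 kb, 25 were measured in ES3 cells, 4 (16.0%) were higher in knockout cells by 2-fold or more and 1 (4.0%) was lower. Over all 12024 measured genes 12.5% were higher and 3.18% were lower. The median log2 ratio was 0.07 for genes at members and 0.08 for all genes. None of the 25 lay on chromosome 14.

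The 4 higher genes were low in wild-type cells. Fhl2, a LIM-domain cofactor of heart and other muscle, stood at 11.8 RPKM in knockout and 0.0493 RPKM in wild-type cells (log2 ratio 3.61); its start (chr1:43179919-43220714, minus strand) lay 292 bp from a member of score 86.98. Sbsn stood at 4.02 RPKM in the knockout and 0.65 in the wild type (1.60), and Scn3b, a sodium channel beta subunit, at 1.92 and 0.297 (1.17). Fam160a1 had 1.53 RPKM in the knockout and 0.263 in the wild type (1.00), which puts it at the threshold. With a pseudocount of 5 RPKM only Fhl2 of these 4 stayed past 2-fold, with Sbsn at 0.67, Scn3b at 0.39 and Fam160a1 at 0.31. Slc25a12, the mitochondrial aspartate and glutamate carrier, was the lower gene, with 8.54 RPKM in the knockout and 39.5 in the wild type (-2.08); a member of score 57.8 lay 176 bp from its start.

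The next ratios were under 2-fold. Gas6, a ligand of TAM receptors, had 16.0 RPKM in knockout and 8.31 RPKM in wild-type cells (0.86), and Srprb, a subunit of the signal recognition particle receptor, 43.9 and 24.8 (0.80). Dync1i2, a dynein intermediate chain, had 40.6 RPKM in the knockout and 24.9 in the wild type (0.68). Rn7sk, the small nuclear RNA that holds the elongation factor P-TEFb inactive, had 32.9 and 20.6 (0.65). At the lower end Fam196b had 0.0975 RPKM in the knockout and 1.03 in the wild type (-0.89), and Cox4nb, which shares a promoter region with Cox4i1, 29.1 and 52.4 (-0.83). Zdhhc4, a palmitoyltransferase, had 17.9 RPKM in the knockout and 20.3 in the wild type (-0.17).

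Of the 10 most abundant genes at member peaks in wild-type cells, 7 had ratios near 0; Slc25a12, Cox4nb and Dync1i2, given above, were the others. Cox4i1, a subunit of cytochrome c oxidase, stood at 615 RPKM in knockout and 642 RPKM in wild-type cells (-0.06), and Npm1, nucleophosmin, at 398 and 379 (0.07). The ribosomal protein gene Rps29 had 291 RPKM in the knockout and 347 in the wild type (-0.25), and the tubulin gene Tubb2a 74.8 and 76.2 (-0.02). Imp3, of the small subunit processome, had 49.4 RPKM in the knockout and 51.3 in the wild type (-0.05), Dpm2, of mannosyl donor synthesis, 43.8 and 40.0 (0.13), and Csnk2a1, the catalytic subunit of casein kinase 2, 31.0 and 34.8 (-0.16). Npm1, Rps29, Cox4i1 and Tubb2a have near-identical copies or pseudogenes, so their levels are uncertain.

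**Figure D5:**
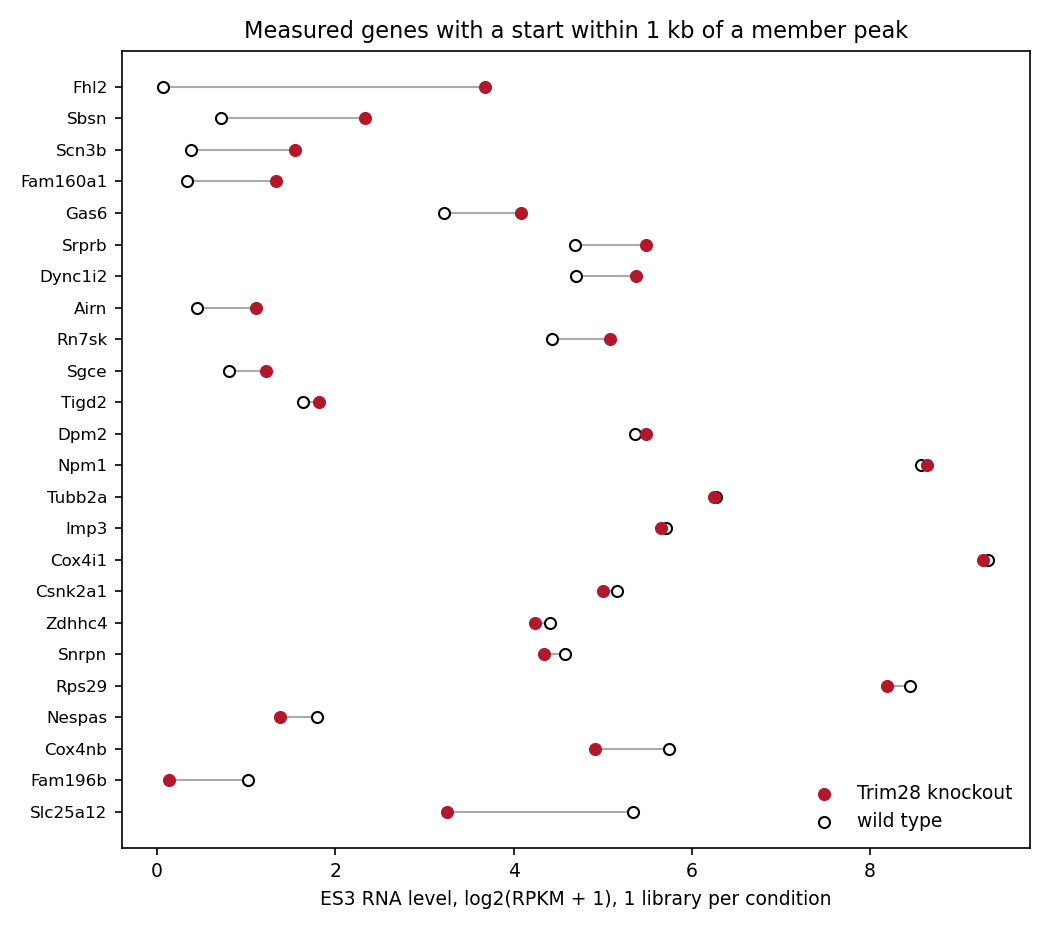
ES3 RNA level as log2(RPKM + 1) of measured genes with a start within 1 kb of a member peak, in Trim28 knockout (filled) and wild type (open), 1 library each, ordered by ratio. Fhl2 has the largest ratio, 3.61, and Slc25a12 the smallest, -2.08.

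Wider links between genes and peaks gave shares near the background. Of 489 genes with a start within 20 kb, 346 were measured in ES3 cells, 33 (9.54%) were higher in the knockout and 12 (3.47%) lower, with a median of 0.07. Without chromosome 14 these were 30 of 331 (9.06%) and 12, with a median of 0.06. Around knockout-sensitive peaks with H3K9me3, 25 of 144 (17.4%) were higher, and around input-only peaks lacking H3K9me3 42 of 324; these differences were not tested. Nanog was among the lower ones, at 25.0 RPKM in knockout and 66.1 RPKM in wild-type cells (-1.37). It was the 1 of the 28 genes on the pluripotency list with a member within 20 kb. Of that list 12 genes were lower by 2-fold and none higher. Genes whose span held a member's centre were measured in 386 cases, with 53 (13.7%) higher, 12 (3.11%) lower and a median of 0.16. Without chromosome 14 these were 46 of 364 higher, 12 lower and 0.13. Of those ratios, the largest after Dab2 belonged to genes beyond 100 Mb on that chromosome: Dnajc3, a chaperone (3.25), Tm9sf2, an endosomal membrane protein (2.81), Farp1 (2.51) and Stk24, a kinase (2.17). Clybl, also there, had 2.04.

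Gene lists are read against all 17818 symbols, of which 2.74% had a start within 20 kb of a member and 4.65% when host genes were added. Of 326 genes named Zfp, a group that holds most KRAB zinc finger genes, 14 (4.29%) had a start within 20 kb and 16 with host genes. None of the 14 measured passed 2-fold, against 12.5% higher and 3.18% lower over all measured genes. Over the whole Zfp list, 18 of 274 measured genes were higher and 4 lower. With 14 genes, none past 2-fold cannot be told from the share of the list. The nearest were Zfp72 at 1762 bp, with 1.02 RPKM in knockout and 1.66 RPKM in wild-type cells (-0.40), and Zfp873 at 2024 bp, with 2.69 and 2.05 (0.27). Zfp664, at 3739 bp, had 21.8 RPKM in the knockout and 20.5 in the wild type (0.08), and Zfp61, at 4255 bp, 2.96 and 3.10 (-0.05). Dab2, an endocytic adaptor of primitive endoderm, held a member of score 51.84 and had 12.9 RPKM in knockout and 0.327 RPKM in wild-type cells (3.39). It was the only one of 26 primitive endoderm genes with a member nearby or inside, while 23 of 24 measured genes of that list were higher and 1 lower.

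Of 23 p53 targets and apoptosis genes, Plk2 and Sesn2 had a start within 20 kb of a member (8.7%), and Bcl2l1 held one. Over the whole list, 11 of 22 measured genes were higher by 2-fold in the ES3 knockout and none lower. Sesn2, a stress-induced leucine sensor, had 71.6 RPKM in knockout and 52.2 RPKM in wild-type cells (0.45), and Bcl2l1, an inhibitor of apoptosis, 53.7 and 32.7 (0.70). Dnmt3b, a DNA methyltransferase, was the 1 of 30 genes of the TRIM28 pathway and H3K9 methylation with a member within 20 kb, and had 23.3 RPKM in the knockout and 27.4 in the wild type (-0.22). Eef1a1, a translation elongation factor, was the 1 of 18 housekeeping genes, with 1917 and 1267 RPKM (0.60). Tdpoz2, of the two-cell-stage list, had 0.289 RPKM in the knockout and was listed at 0 in the wild type. Ribosomal protein genes had 3 of 84 within 20 kb (Rps29, Rpl11 and Rps28) and mitochondrial ribosomal protein genes 2 of 76 (Mrpl20 and Mrpl47), none past 2-fold. Germline, interferon response, cell cycle, fibroblast, histone, Hox and snoRNA genes had none, in lists of 8 to 75 genes, against 2.74% over all symbols; lists this small cannot be told from that share.

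In MEFs, measured genes with a start within 1 kb of a member peak were within 2-fold. Of the 32 such genes, 21 were measured and none passed 2-fold, against 0.981% higher and 4.84% lower over all 10805 measured genes. With 21 genes, this cannot be told from those shares. Within 20 kb, 3 of 295 were higher and 15 lower. The 21 genes had a median log2 ratio of 0.35, against 0.0 over all measured genes. The same link to input-only peaks lacking H3K9me3 gave 0.24. Fhl2 stood at 126.0 RPKM in knockout and 99.2 RPKM in wild-type MEFs (0.34), and Slc25a12 at 12.0 and 10.7 (0.15). Genes whose span held a member's centre had 27 of 329 (8.21%) lower, none higher and a median of -0.27. The median thus changed sign with the way genes were tied to peaks. Genes holding the centre of an input-only peak lacking H3K9me3 had 16 of 239 (6.69%) lower, none higher and a median of -0.2. For knockout-sensitive peaks with H3K9me3 these were 6 of 100, none and -0.17, so the shift was not particular to members. KAP1 and H3K9me3 were not measured in MEFs.

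The knockout itself was checked by Trim28, which stood at 37.2 RPKM in knockout and 1051 RPKM in wild-type ES3 cells (-4.78), and at 5.84 and 62.8 RPKM in MEFs (-3.22). The 7 embryonic stem cell markers were at 23.2 RPKM or more in both ES3 libraries, and 3 of them were at least 2-fold lower in the knockout. Of 8 fibroblast markers, 4 were measured in ES3 cells and 3 were higher in the knockout, among them Col1a1 at 9.93 RPKM in knockout and 0.425 RPKM in wild-type cells. In bulk RNA fewer cells of a type and less RNA per cell cannot be told apart.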

How the data were processed

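KAP1 and H3K9me3 chromatin of ES3 cells and RNA of ES3 cells and MEFs were sequenced, 1 library per condition. Bowtie and mm9 are named per the submitters' processing notes; their versions were not stated. KAP1 peaks bear MACS names. For each peak the authors deposited a score, on a scale that is not stated. H3K9me3 regions were deposited with no value. Precipitations were made in duplicate or triplicate per the labels, and whether these were pooled is not given. The authors deposited RPKM per RefSeq transcript; the ES table's wild-type and knockout columns were read as ES3, the only ES pair labelled so.

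Overlaps needed 1 bp. Distances ran from peak edges to deposited mm9 gene starts. Per symbol, the most abundant transcript stood for the gene. Ratios were log2((knockout + 1)/(wild type + 1)), and a gene counted as measured from 1 RPKM in either library, so a gene absent from one was measured through the other. Differences of 2-fold were called by size alone. Where a gene had several promoter windows, the one whose distance to the gene's far end was nearest to the deposited gene length was used. Members and gene lists were chosen with earlier results of these data known. Named genes were the 12 highest-scoring members' genes, the 10 highest and 8 lowest ratios and the 10 most abundant genes within 1 kb, up to 4 genes per list, and the 8 highest members with knockout H3K9me3; other genes were chosen after their values were seen. A gene that the rule names is not reported here or drawn, though counts include it. Alternatives are in the closing section. H3K27ac and Rex1GFP libraries were not analysed here. Python 3.11.15, pandas 2.3.3 and numpy 2.4.6 were used.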

Additional observations from a re-analysis of the deposited data

Results flagged for a closer look

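Among the 489 genes with a start within 20 kb of a member peak, 3 passed 2-fold in both cell types, and 1 of these went opposite ways. Ptgs2, which encodes the inducible cyclooxygenase of prostaglandin synthesis, had a log2 ratio of 2.06 in ES3 cells (4.09 RPKM in knockout, 0.223 RPKM in wild type) and of -1.2 in MEFs (44.8 RPKM in knockout, 105 RPKM in wild type). A member of score 56.4 lay 4964 bp from its start. With 1 library per condition this difference was not tested. Crip2 was higher in both (1.80 and 1.03), and Suz12, a Polycomb subunit, was lower in both (-1.10 and -1.12). The same counts over all genes were not made, so these 3 cannot be read as particular to genes near members.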

How the results depend on the processing

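Choosing the members with at least 50% overlap, or with no knockout-over-input peak, returned the same 1219 peaks, so no share could move. Keeping away from wild-type H3K9me3 by 1 kb or 10 kb left 1165 or 995 and moved no share beyond its counting interval. For ES3 RNA that interval rests on 25 measured genes and is wide. Members scoring above the median of all peaks over input numbered 600; of these 8.67% overlapped knockout H3K9me3, no gene at them was lower in ES3 (0.0%), and the ES3 median was -0.04. Without chromosome 14, a choice made after seeing the data, 1144 members remained, with 5.24% overlapping knockout H3K9me3. That overlap was 9.35% within 1 kb and 4.43% when 50% of the peak was required. A start within 5 kb was found for 10.8% of members. In ES3, a pseudocount of 5 RPKM left 4.0% of genes within 1 kb higher, and a filter at 5 RPKM left 6.25% with a median of -0.04, while counting every transcript row gave a median of 0.18. In MEFs, the median was 0.1 with no filter and 0.02 with starts within 20 kb, with or without chromosome 14. Tied by gene span, a link added after seeing the data, the MEF median was -0.27, and -0.26 also without chromosome 14. Among named genes, Inpp5f, Sbsn, Scn3b and Fam160a1 lost their 2-fold call at a pseudocount of 5 RPKM, Airn (1.45) and Fam196b (-2.52) gained it at 0.1 RPKM, and Fam160a1 (0.92) lost it on centring. No paired analysis was possible because each condition has 1 library. Leaving out a replicate was likewise not possible. Read depth is unknown, so low RPKM values have no interval.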

Other observations

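Other genes near member peaks, chosen here after their values were seen, showed large ES3 ratios with no member at the start itself. Lhfpl2, a tetraspan membrane protein, stood at 11.7 RPKM in knockout and 0.461 RPKM in wild-type cells (log2 ratio 3.12), with its start 6689 bp from a member of score 71.38. Rab3il1, an exchange factor for Rab proteins, had 14.8 RPKM in the knockout and 2.56 RPKM in the wild type (2.15), with a member at 5014 bp. On the other side, Gbx2, a homeobox factor known to aid self-renewal of embryonic stem cells and not on the pluripotency list, had 11.3 RPKM in the knockout and 34.7 RPKM in the wild type (-1.53), with a member of score 61.41 at 4075 bp. Kdm5b, an H3K4 demethylase, had 45.7 RPKM in the knockout and 96.0 RPKM in the wild type (-1.06), with a member at 4128 bp. Zmat4, whose span held a member of score 109.93, had 0.498 RPKM in the knockout and 6.35 RPKM in the wild type (-2.29).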
